A study of Mus musculus with 10 samples.

Results

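The genes described here are the 3 D-type cyclins, Ccnd1, Ccnd2 and Ccnd3, and their kinase partners Cdk4 and Cdk6. They were taken as the rows of the expression table whose Ensembl gene ID maps to these symbols. All 5 were present among the 29527 genes of the table and all 5 were among the 17268 genes with enough expression to be tested. RNA was measured in bulk in the dissected intermediate lobe (IL) of the mouse pituitary, with 1 library from each of 10 mice aged 2 to 3 months. The genotypes were WT (n = 4), with no mutation, p27-/- (n = 3), which lacked both functional copies of Cdkn1b, the gene for the cyclin-dependent kinase (CDK) inhibitor P27, and p27-/-;Sox2+/- (n = 3), which lacked both copies of Cdkn1b and 1 copy of Sox2. The p27 allele is constitutive, so that every cell type of the mouse lacks the protein, and the mice were kept on a mixed background, with both sexes in each group according to the study's methods. Sox2+/- mice with intact Cdkn1b were not analysed here, so the Sox2 mutation is measured only on the p27-/- background.

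D-type cyclins are made in response to growth signals, bind CDK4 or CDK6 and, with them, start the phosphorylation of the retinoblastoma protein RB in G1 phase. Phosphorylated RB releases E2F factors, which turn on cyclins E and A and the genes of DNA replication. P27 inhibits CDK2 complexes, and it also binds complexes of cyclin D with CDK4 or CDK6, whose assembly it can promote. Melanotrophs, the hormone cells of the IL, divide rarely in the normal adult, and loss of P27 or of RB leads to tumors of this lobe in mice.

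The 5 genes were selected on earlier results of these 10 libraries, in which the differences of Ccnd2 and Cdk4 from WT were known. Their differences from WT are therefore given as a description, with no test. The comparison of the 2 mutants with each other is tested below for Ccnd1, Ccnd3 and Cdk6. For Ccnd2 and Cdk4 the differences from WT were known when they were chosen. Their differences between the mutants are therefore descriptions as well. All values of single genes are log2 expression values as deposited, in which values of weakly expressed genes are drawn together, and they do not show read depth. A gene is called changed where its p-value in limma, adjusted over the 17268 tested genes by the Benjamini-Hochberg method, lies under 0.05. The p-values measure the spread between mice of a genotype.

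The targeted gene, Cdkn1b, had log2 values of 8.39 to 8.85 in WT, 8.04 to 8.27 in p27-/- and 7.73 to 8.10 in p27-/-;Sox2+/-, so transcript was still counted at this gene in both mutants and every mutant library was below every WT library. Sox2 was at 7.34 to 7.75 in WT, 7.08 to 7.45 in p27-/- and 6.88 to 7.07 in p27-/-;Sox2+/-, with the compound mutants below all other libraries, but its difference of -0.46 from WT did not pass the threshold (adjusted p = 0.0811). Each pair of libraries had a correlation over tested genes of at least 0.981, and by this measure no library stood apart. The weights per array, used below as an alternative, were less even. The weight was 3.462 for p27-/-;Sox2+/- replicate 2, and the next highest was 1.511 for p27-/- replicate 2. WT replicate 2 had the highest mean level of anterior lobe hormone genes, 1.94 above the mean of all libraries on the log2 scale, where the other WT libraries lay between -0.17 and 0.40.

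Ccnd2 was the member that differed most between genotypes. It encodes cyclin D2 and lies at chr6:127125162-127152188 (GRCm38). Its log2 values were 11.55, 11.87, 11.59 and 11.54 in the WT libraries, 8.43, 8.68 and 8.34 in p27-/- and 9.91, 9.48 and 9.03 in p27-/-;Sox2+/-. The 3 genotypes did not overlap, with the compound mutant between the others, and the lowest WT library was 1.63 above the highest mutant library. The genotype means (± SD) were 11.64 ± 0.16 for WT (n = 4), 8.48 ± 0.18 for p27-/- (n = 3) and 9.47 ± 0.44 for p27-/-;Sox2+/- (n = 3). Ccnd2 was thus 8.91-fold lower than WT in p27-/- (log2 difference -3.16, standard error 0.16) and 4.49-fold lower in p27-/-;Sox2+/- (-2.17, standard error 0.16). Counted from the lowest difference, it ranked 2 of 17268 tested genes in p27-/- and 3 in p27-/-;Sox2+/-.

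Ccnd1, the gene for cyclin D1, at chr7:144929931-144939831, was also lower in both mutants. Its log2 values were 9.40, 9.97, 9.35 and 9.77 in WT, 7.64, 8.01 and 7.43 in p27-/- and 8.46, 8.02 and 8.12 in p27-/-;Sox2+/-. No mutant library reached the WT range, whose lowest library was 0.89 above the highest mutant library. The mutants themselves were separated by only 0.01. The genotype means (± SD) were 9.63 ± 0.30, 7.69 ± 0.29 and 8.20 ± 0.23. The level was 3.82-fold lower than WT in p27-/- (log2 difference -1.94, standard error 0.17) and 2.69-fold lower in the compound mutant (-1.43, standard error 0.17), which placed Ccnd1 at rank 5 and rank 13 from the lowest difference.

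Ccnd3, the gene for cyclin D3 at chr17:47505051-47599689, differed little. The WT libraries were at 8.49, 8.49, 7.97 and 8.31, the p27-/- libraries at 7.87, 8.09 and 8.05 and the p27-/-;Sox2+/- libraries at 7.98, 8.12 and 7.89. WT replicate 3 lay within the range of the mutants, so the genotypes overlapped in every comparison. The means were 8.32 ± 0.24 (SD, n = 4), 8.01 ± 0.12 (SD, n = 3) and 8.0 ± 0.12 (SD, n = 3), and the log2 differences from WT were -0.31 (standard error 0.13) in p27-/- and -0.32 (standard error 0.13) in the compound mutant.

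The kinases did not share the low levels of Ccnd1 and Ccnd2. Cdk4, at chr10:127063535-127067288, had log2 values of 9.95, 10.22, 9.94 and 10.16 in WT, 10.50, 10.41 and 10.31 in p27-/- and 10.35, 10.25 and 10.27 in p27-/-;Sox2+/-. Every mutant library was above every WT library, and the mutants overlapped each other. The means (± SD) were 10.07 ± 0.14 for WT, 10.41 ± 0.10 for p27-/- and 10.29 ± 0.05 for the compound mutant. The log2 difference from WT was 0.34 (standard error 0.09) in p27-/-, a 1.26-fold higher level, and 0.22 (standard error 0.09) in the compound mutant.

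Cdk6, at chr5:3341004-3531008, had log2 values of 10.57, 10.49, 10.74 and 10.65 in WT, 10.81, 10.70 and 11.00 in p27-/- and 10.68, 10.46 and 10.13 in p27-/-;Sox2+/-. Both mutants overlapped WT. All p27-/- libraries lay above all p27-/-;Sox2+/- libraries, but narrowly, with the lowest p27-/- library at 10.70 and the highest compound mutant library at 10.68. The means were 10.61 ± 0.11 (SD, n = 4), 10.84 ± 0.15 (SD, n = 3) and 10.43 ± 0.28 (SD, n = 3). The log2 difference from WT was 0.23 (standard error 0.12) in p27-/- and -0.19 (standard error 0.12) in p27-/-;Sox2+/-. The latter difference rested on single libraries, at -0.04 without p27-/-;Sox2+/- replicate 3 and -0.315 without p27-/-;Sox2+/- replicate 1.

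**Figure D1:**
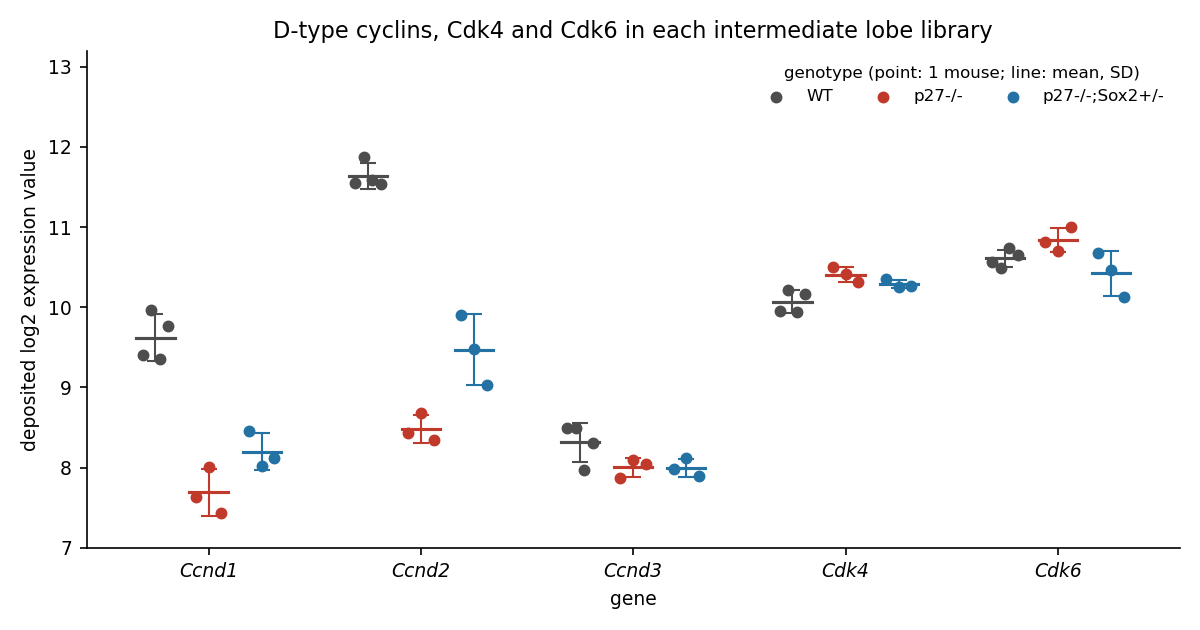
Deposited log2 expression value (vertical axis) of the 5 genes (horizontal axis) in each of the 10 libraries, 1 point per mouse, with the mean and SD of each genotype as lines. The WT libraries of Ccnd2 sit between 11.54 and 11.87 and the mutants between 8.34 and 9.91, while the genotypes of Ccnd3 overlap and Cdk4 is highest in p27-/-.

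Some separation of small groups is common in this table. In p27-/- against WT, 20.6% of all tested genes had libraries that did not overlap, and Ccnd1, Ccnd2 and Cdk4 were among them. The share was 15% in p27-/-;Sox2+/- against WT, again with Ccnd1, Ccnd2 and Cdk4, and 15.3% between the mutants, with Ccnd1, Ccnd2 and Cdk6. Among the members, the separation of Cdk4, with 0.09 between the highest WT library and the lowest p27-/- library, is thus of a kind that many genes show. The calls by adjusted p over all tested genes were fewer: 3.16% of genes were called higher and 4.62% lower in p27-/- against WT, and the compound mutant against WT gave 0.828% higher and 1.88% lower.

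The comparison of p27-/-;Sox2+/- with p27-/- asks what the loss of 1 Sox2 copy does when P27 is absent. Of all tested genes, 0.145% were called in it. Ccnd2 was 1.99-fold higher in the compound mutant than in p27-/- (log2 difference 0.99, standard error 0.18), and all 3 compound mutant libraries lay above all 3 p27-/- libraries. It ranked 8 from the highest of all tested differences. The size of the difference was 0.98 to 0.99 under every other setting with all 10 libraries, and 0.77 to 1.21 with 1 library left out, lowest without p27-/-;Sox2+/- replicate 1 and highest without p27-/-;Sox2+/- replicate 3. The Ccnd2 deficit of p27-/-;Sox2+/- against WT was 68.6% of the log2 deficit of p27-/-.

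Of Ccnd1, Ccnd3 and Cdk6, the members tested between the mutants, limma called 0, and Ccnd1 and Cdk6 had an unadjusted p under 0.05 (0.0141 and 0.00643). Ccnd1 was higher in the compound mutant by 0.51 (95% confidence interval 0.12 to 0.90, adjusted p = 0.529), and its deficit against WT was 73.7% of that in p27-/- on the log2 scale. Cdk6 was lower in the compound mutant by a log2 difference of -0.41 (95% confidence interval -0.69 to -0.14, adjusted p = 0.393). For Cdk4 the difference was -0.12 (standard error 0.10), a description with no test, as for Ccnd2. The difference of Ccnd3 was -0.01 (95% confidence interval -0.30 to 0.29, adjusted p = 0.999), which leaves room for a change of up to 0.30 in either direction.

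**Figure D2:**
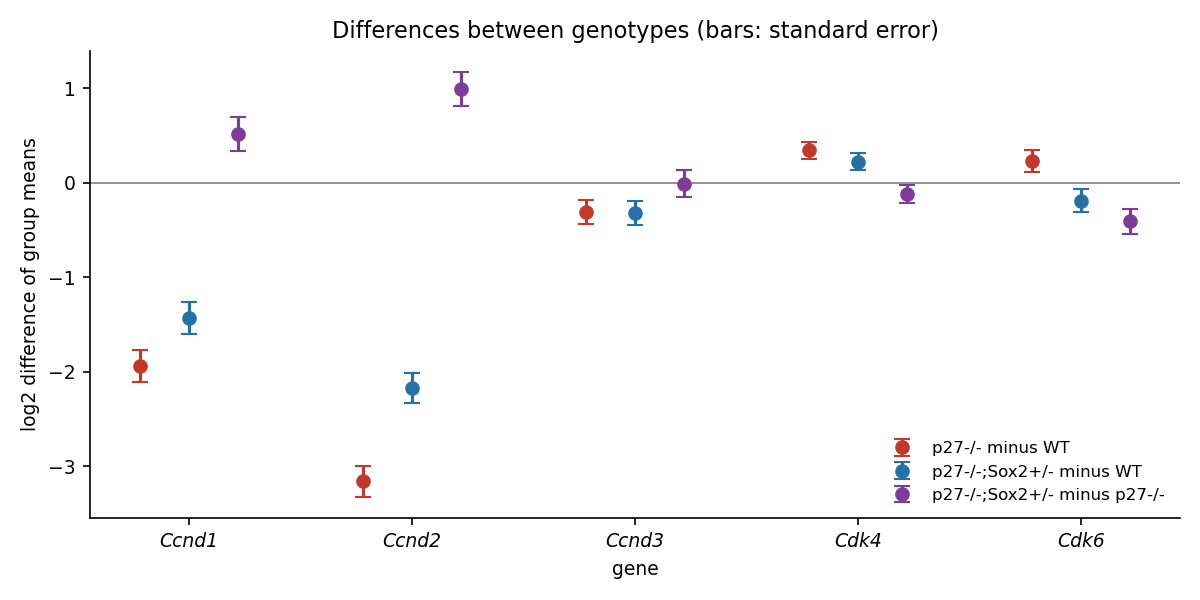
Log2 difference of the group means (vertical axis) for each of the 5 genes, with its standard error as a bar, in p27-/- minus WT, p27-/-;Sox2+/- minus WT and p27-/-;Sox2+/- minus p27-/-. Ccnd2 and Ccnd1 lie far below 0 against WT, at -3.16 and -1.94 in p27-/-, while the differences of Ccnd3, Cdk4 and Cdk6 stay between -0.41 and 0.34.

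The makeup of the D cyclin pool was compared per length, on the linear scale, after dividing each level by the exon length of the gene. In WT, Ccnd2 led with 562 ± 64.5 per kb (SD, n = 4), followed by Ccnd1 with 209 ± 43.6 and Ccnd3 with 143 ± 22.6. The order Ccnd2, Ccnd1, Ccnd3 was the same in all 4 WT libraries, in which the lowest Ccnd1 value, 171, was above the highest Ccnd3 value, 159. In p27-/-, Ccnd3 led with 114 ± 9.17 per kb (SD, n = 3), and Ccnd2, with 63.1 ± 7.93, and Ccnd1, with 54.6 ± 11.4, overlapped. In p27-/-;Sox2+/-, Ccnd2 at 129 ± 38.8 per kb (SD, n = 3) and Ccnd3 at 114 ± 9.15 overlapped, and Ccnd1 was at 77.3 ± 12.8. The sum of the 3 D cyclins was 914 ± 114 per kb in WT, 232 ± 24.5 in p27-/- and 319 ± 51.5 in p27-/-;Sox2+/-, a 3.94-fold and a 2.86-fold lower level.

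As shares of this sum, Ccnd2 made up 61.0%, 60.9%, 65.7% and 58.7% in the WT libraries, 27.9%, 27.7% and 25.9% in p27-/- and 45.3%, 39.6% and 33.9% in p27-/-;Sox2+/-. The genotypes did not overlap, with the compound mutant in between. The mean share of Ccnd3 (± SD) was 15.7% ± 2.09 for WT, 49.4% ± 3.77 for p27-/- and 36.1% ± 5.24 for the compound mutant. After the division by length, Ccnd1 held a similar share throughout, 22.8% ± 2.52, 23.4% ± 2.74 and 24.3% ± 2.81, with overlapping libraries. The larger share of Ccnd3 in the mutants thus came with no higher Ccnd3 level. The lengths come from an older annotation than the one used for counting. Without the division by length Ccnd2 led in all 3 genotypes, with 74.1% in WT, 43.5% in p27-/- and 56.2% in p27-/-;Sox2+/-. Ccnd1 then made up 18.4%, 25.2% and 23.3% in the same order, so its similar share depended on the division. Ccnd3 made up 7.46%, 31.3% and 20.4%. The cyclins and the kinases are not compared per length, because the annotated exons of Cdk4 join several alternative transcripts.

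**Figure D3:**
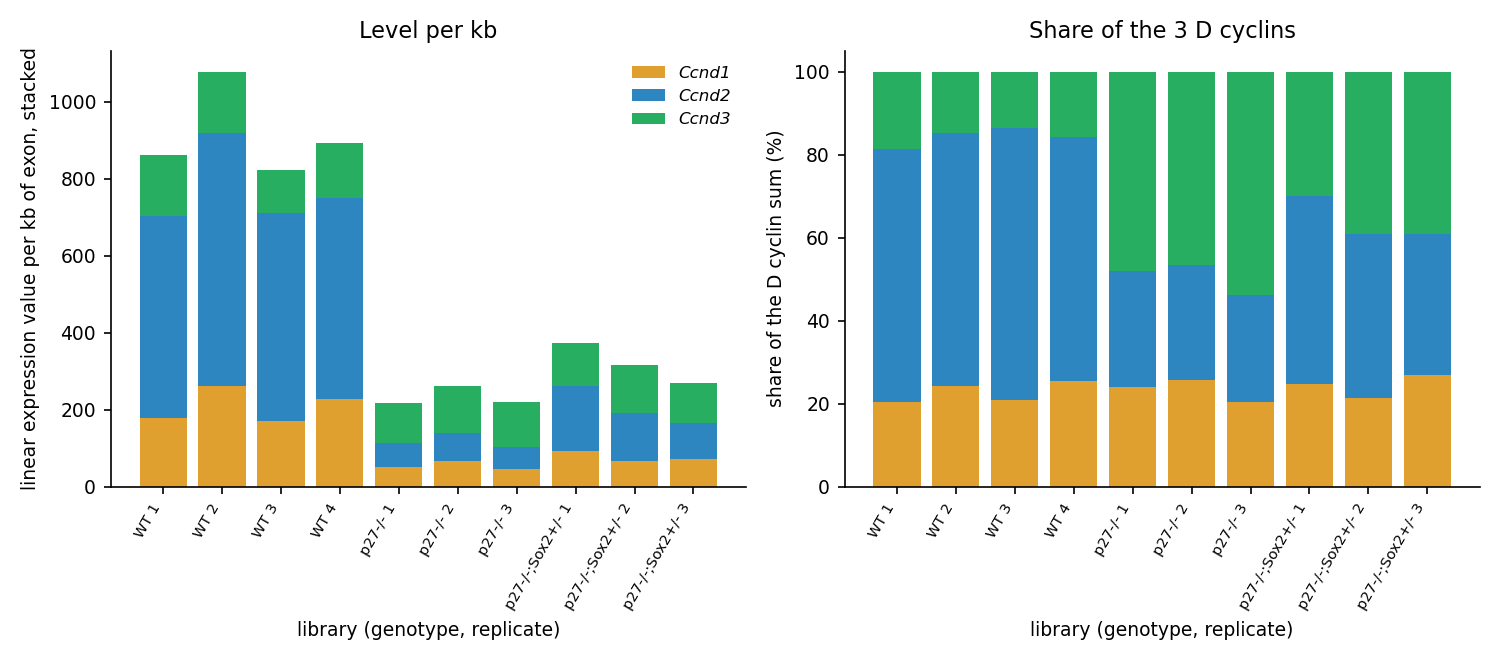
Linear expression value per kb of exon of Ccnd1, Ccnd2 and Ccnd3, stacked (left, vertical axis), and their shares of the sum in percent (right), for each of the 10 libraries (horizontal axis). Ccnd2 makes up 58.7% to 65.7% of the sum in WT and 25.9% to 27.9% in p27-/-. On this scale per kb, the share of Ccnd1 hardly differs between genotypes.

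The members also differed in how they varied together. Over the 10 libraries, Pearson's r between Ccnd1 and Ccnd2 was 0.98, and over the deviations of each library from its genotype mean it was 0.66. Ccnd1 and Cdk4 had an r of -0.70 over the 10 libraries and of 0.79 over the deviations pooled over the genotypes. The order of the libraries was not the same in each genotype: in p27-/-, replicate 2 had the most Ccnd1 but replicate 1 the most Cdk4. Cdk6 had an r between -0.24 and 0.15 with each of the other members over the 10 libraries. These values are descriptions over 10 libraries that share 3 genotype means and the same scaling.

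Among all tested genes, those whose levels were most like Ccnd2 over the 10 libraries were an unnamed gene with the ID ENSMUSG00000107379 (r = 0.985, log2 difference -1.86 in p27-/- and -1.28 in p27-/-;Sox2+/-), Ccnd1 (r = 0.978), the complement gene C2 (r = 0.978), ENSMUSG00000102647 (r = 0.971) and Rab11fip1 (r = 0.971), whose product binds the trafficking protein RAB11. Ccnd1 was most like Ccnd2, followed by Rab11fip1 (r = 0.971), ENSMUSG00000102647 (r = 0.969) and 2 IDs with no symbol in the reference used here. The differences of these genes were smaller than those of the cyclins, with C2 at -0.63 and Rab11fip1 at -0.56 in p27-/- on the log2 scale. Ccnd3 stood at rank 1375 of likeness to Ccnd2, and Cdk4 near the opposite end at rank 16703.

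The difference of Ccnd2 was not shared by the genes around it. Of 29 genes annotated within 500 kb, 9 were tested. The nearest was Tigar, a fructose bisphosphatase gene 15.6 kb away, with log2 differences from WT of 0.19 and 0.34 in the 2 mutants (adjusted p = 0.419 and 0.184). D6Wsu163e, 149.5 kb away, rose by 0.36 in p27-/- (adjusted p = 0.0341), as did Rad51ap1, a DNA repair gene 185.5 kb away, by 0.44 (adjusted p = 0.0321). Akap3 and Ndufa9, a subunit gene of respiratory complex I, were at 0.09 and 0.06 and were not called. Ccnd2 and the mutated gene Cdkn1b are on the same chromosome, 7.77 Mb apart. Of 31 tested genes between them, limma called 0 in each comparison, and 7 had an unadjusted p under 0.05 in p27-/- against WT, 7 in p27-/-;Sox2+/- against WT and 2 between the mutants. Of all tested genes, 24.1% had such a p in the first of these comparisons, 17.8% in the second and 6.65% between the mutants. The unadjusted counts of the gene lists stand beside the same background.

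**Figure D4:**
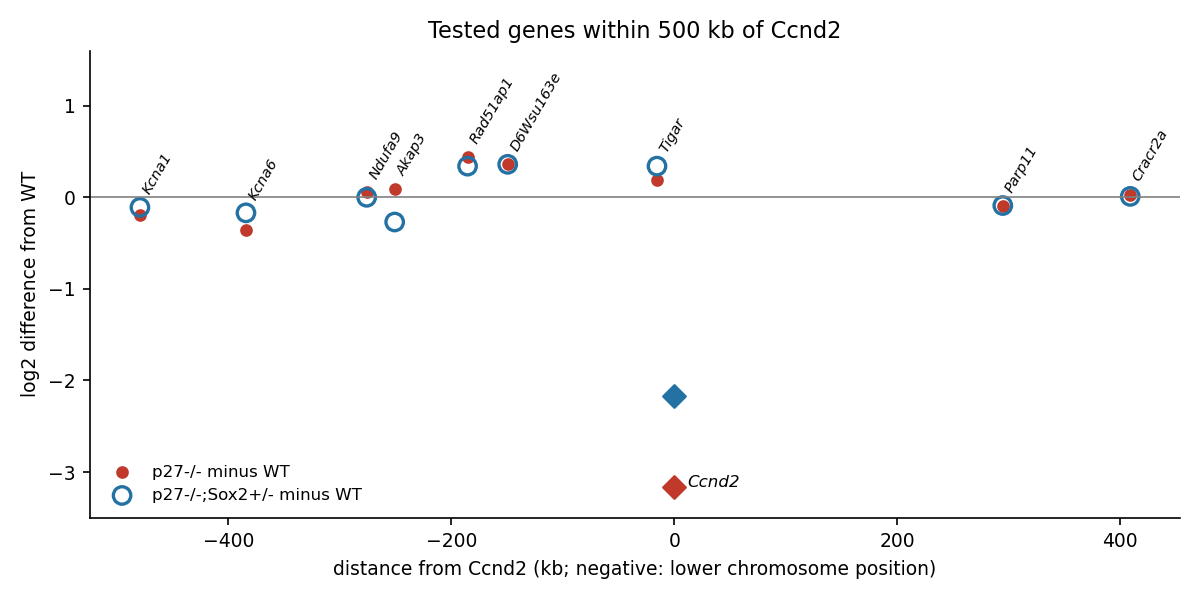
Log2 difference from WT (vertical axis) of the 9 tested genes within 500 kb of Ccnd2, by distance from Ccnd2 in kb (horizontal axis), in p27-/- (filled) and p27-/-;Sox2+/- (open), with Ccnd2 as diamonds. Ccnd2 is at -3.16 and -2.17, and its 9 neighbours lie between -0.36 and 0.44.

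Other genes overlap the members in the annotation, and the counting used no strand, so reads from shared bases cannot be assigned with certainty. The 818 bases at the low-coordinate end of Ccnd1 are shared with LTO1, a gene needed for ribosome biogenesis, which fell by 0.53 in p27-/- (adjusted p = 0.0209) and was at -0.32 in p27-/-;Sox2+/- (adjusted p = 0.177). LTO1 was therefore lower in the direction of Ccnd1 by a much smaller amount. Bysl, which shares 359 bases with Ccnd3, and Tspan31, which shares 2 bases with Cdk4, were not called in either comparison with WT, at -0.04 and -0.01 in p27-/-. The noncoding genes annotated over Ccnd2, Ccnd3 and Cdk6 were not measured under a matched name.

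The promoter of Cdk4, the member that was higher in both mutants, is shown because Cdk4 is a known target of MYC, which binds the E-box CACGTG. The sequence is the 250 bases before the RefSeq start, chr10:127063285-127063534 on the + strand of GRCm38.p6, with each CACGTG in capitals. This motif reads the same on both strands.
Cdk4 promoter: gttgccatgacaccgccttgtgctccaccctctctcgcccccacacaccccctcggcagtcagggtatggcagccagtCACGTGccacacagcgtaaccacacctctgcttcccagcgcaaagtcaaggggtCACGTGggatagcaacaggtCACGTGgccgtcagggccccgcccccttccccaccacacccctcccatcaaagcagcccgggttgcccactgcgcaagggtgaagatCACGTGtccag
It holds 4 matches, which begin at positions -172, -118, -98 and -11 from the start. At least 1 match was present in 6.02% of 32851 promoter windows of the same length, and 4 or more in 7 windows, 0.0213%. The window of Cdk6 held 1 match and both windows of Ccnd3 held 0. No window was available for Ccnd1 and Ccnd2. Gene and motif were picked as a known pair, so these shares are a description and no test. A match of letters is no measure of binding, and limma called none of the Myc, Mycn and Mycl transcripts. Myc was at 6.16 ± 0.25 (SD, n = 4) in WT and 6.67 ± 0.51 (SD, n = 3) in p27-/-. This log2 difference of 0.50 had an adjusted p of 0.14, and of 0.0255 to 0.455 with a library left out. Mycl was at 7.37 to 7.64 in WT, 7.69 to 8.13 in p27-/- and 7.01 to 7.36 in p27-/-;Sox2+/-, so that the genotypes did not overlap. Its log2 difference was 0.42 in p27-/- against WT (adjusted p = 0.0624) and -0.69 between the mutants (adjusted p = 0.0985). Mycn was at 0.33 in p27-/- against WT (adjusted p = 0.131).

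The wider pathway was read through 8 gene lists with 89 tested genes in all. The lists, like the members, were chosen with earlier results of these libraries known. Their calls and p-values, and those of Mki67 and Top2a, are therefore no independent test. In p27-/- compared with WT, 15 of the 89 were called, of which Ccnb1, Cdk1, Mcm2 and Tcf7l2 kept an adjusted p under 0.05 in all other settings and with each library left out. In p27-/-;Sox2+/- compared with WT, 3 were called, and 0 of the 3 kept it throughout. The mutated gene Cdkn1b was among the called genes in both of these comparisons. Between the mutants limma called 0 of the 89, with 14 at an unadjusted p under 0.05.

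Some genes downstream of the D cyclin kinases were higher in p27-/-. Of 9 tested later cyclins and CDKs, 4 rose and 0 fell, with a list median of 0.51 on the log2 scale, where the median of all tested genes was 0.009. Ccna2, the S phase cyclin A2, rose by 0.94 (standard error 0.19, adjusted p = 0.0107). The mitotic cyclin genes Ccnb1 and Ccnb2 rose by 0.87 (adjusted p = 0.00493) and 0.51 (adjusted p = 0.0101), and Cdk1, the kinase of mitosis, by 0.88 (standard error 0.14, adjusted p = 0.00279). The other 5 were not called. The cyclin E genes Ccne1 and Ccne2 were at 0.15 (adjusted p = 0.515) and 0.32 (adjusted p = 0.194), and Cdk2 at -0.01 (adjusted p = 0.954). Cdc25a was at 0.05 (adjusted p = 0.82) and Cdc25b at 0.52 (adjusted p = 0.0655). Of 18 replication genes that E2F controls, 5 rose, 0 fell and 13 were not called. All 18 had a difference above 0, with a median of 0.31. Rrm2, a subunit gene of ribonucleotide reductase, rose by 0.69 (adjusted p = 0.019). Mcm2, of the replicative helicase, rose by 0.53 (adjusted p = 0.00797), Mcm3 by 0.48 (adjusted p = 0.0389) and Rrm1 by 0.36 (adjusted p = 0.0465). In the compound mutant against WT, limma called 0 of 9 and 0 of 18 in these lists, with 2 and 5 at an unadjusted p under 0.05 and medians of 0.16 and 0.25.

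Markers of dividing cells were higher in the genotypes in which Ccnd1 and Ccnd2 were lower. Mki67, which encodes the Ki-67 protein of dividing cells, had log2 values of 6.79 to 8.12 in WT, 9.27 to 9.89 in p27-/- and 8.44 to 8.89 in p27-/-;Sox2+/-. It rose by 2.19 in p27-/- (standard error 0.24, adjusted p = 0.000396) and by 1.36 in the compound mutant (adjusted p = 0.0105). Top2a, the topoisomerase of dividing cells, rose by 2.13 (standard error 0.22, adjusted p = 0.000246) and 1.16 (adjusted p = 0.014), the latter with an adjusted p of up to 0.0579 in other settings with all libraries and of 0.0659 without p27-/-;Sox2+/- replicate 1. Both were highest in p27-/-, where Ccnd1 and Ccnd2 were lowest. Between the mutants their differences of -0.83 and -0.97 were not called (adjusted p = 0.382 and 0.19).

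Among the CDK inhibitors, 5 of 7 were tested. Apart from Cdkn1b itself, Cdkn2c, which encodes the CDK4 and CDK6 inhibitor P18, rose by 0.62 in p27-/- (standard error 0.16, adjusted p = 0.0346) and was at 0.51 in p27-/-;Sox2+/- (adjusted p = 0.114). The call in p27-/- was lost in some settings, with an adjusted p of up to 0.14 without p27-/- replicate 2. Of 12 tested genes for RB family proteins and E2F factors, 2 rose in p27-/- and 0 fell, with a median of 0.19. Tfdp1, the dimer partner of E2F, rose by 0.54 (adjusted p = 0.0135) and E2f1 by 0.45 (adjusted p = 0.0374), and in the compound mutant limma called 0 of the 12, with 1 at an unadjusted p under 0.05.

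Genes that act on the D cyclins themselves gave 1 call per list in each mutant. Of all tested genes, 3.16% were called higher and 4.62% lower in p27-/-, and 0.828% and 1.88% in the compound mutant. Counts of 1 in lists of this size are too small to be set apart from these shares. Of 17 tested transcription factors that act on D cyclin genes, 1 was called, in both mutants, with 5 at an unadjusted p under 0.05 in p27-/- and 2 in the compound mutant. This was Tcf7l2, a factor that carries Wnt signals to its target genes, which fell by 0.65 in p27-/- (standard error 0.13, adjusted p = 0.00869) and by 0.64 in the compound mutant (standard error 0.13, adjusted p = 0.0186). The medians of this list were 0.05 and -0.04. Of 10 genes of cyclin D turnover, only Cryab was called, with 2 at an unadjusted p under 0.05 in each mutant. It encodes a small heat shock protein that works with an adapter of cyclin D1 degradation, and it fell by 0.47 in p27-/- (adjusted p = 0.0469) and by 0.67 in the compound mutant (adjusted p = 0.0204). Limma called 0 of 6 genes of CDK activation and folding and 0 of 13 other cyclins in any comparison, with medians of 0.16 and 0.20 in p27-/-, where 2 and 6 of them had an unadjusted p under 0.05.

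**Figure D5:**
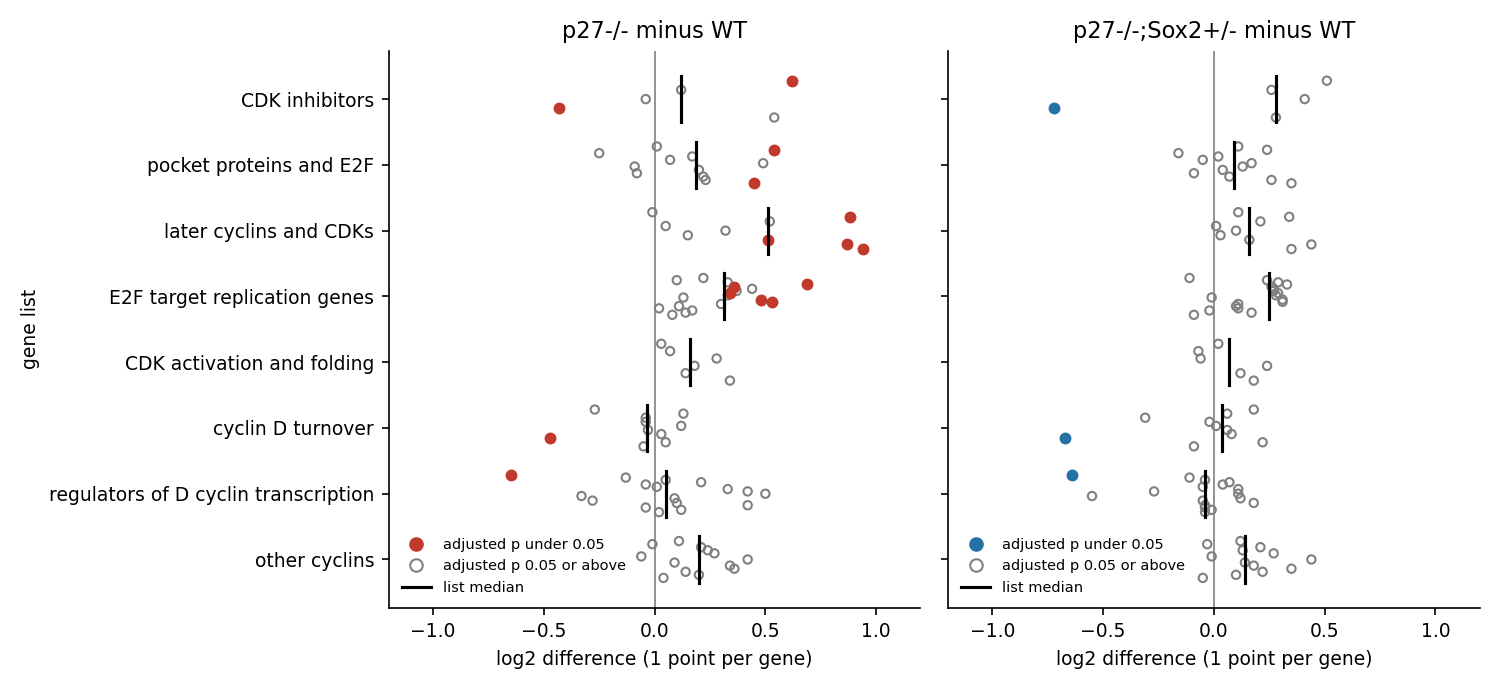
Log2 difference from WT (horizontal axis) of each tested gene of 8 lists (vertical axis, 1 row per list) in p27-/- (left) and p27-/-;Sox2+/- (right), with filled points for an adjusted p under 0.05 and a black line at the list median. In p27-/- the later cyclins and CDKs have a median of 0.51 and the regulators of D cyclin transcription one of 0.05.

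The lobe was dissected whole, and fewer cells of a type and less RNA per cell cannot be told apart in these libraries. Of the 5 melanotroph markers, Pcsk2 rose by 0.53 in p27-/- (adjusted p = 0.0352), Pcsk1 fell by 0.45 (adjusted p = 0.0206) and the others were not called. In the compound mutant only Pcsk1 was called, at -0.42 (adjusted p = 0.0498). The mean level of the list lay between -0.16 and 0.20 around the mean of all libraries in every genotype. Some markers of other cells were lower where Ccnd1 and Ccnd2 were lower. Of 6 endothelial markers, Kdr fell by 0.83 in p27-/- (adjusted p = 0.00966) and Flt1 by 0.75 (adjusted p = 0.029), both were also called lower in p27-/-;Sox2+/-, and the mean level of the list was -0.01 to 0.42 in WT, -0.38 to 0.00 in p27-/- and -0.31 to 0.15 in the compound mutant. Of 7 posterior lobe markers, limma called 0 in each comparison (3 and 2 at an unadjusted p under 0.05 in p27-/- and the compound mutant against WT), with medians of -0.65 and -0.62 against WT, and the list level was -0.51 to 0.79 in WT, -0.39 to -0.01 in p27-/- and -0.71 to 0.47 in the compound mutant. Among 5 fibroblast markers, 1 had a difference above 0 in p27-/-, and only Pdgfra was called, at -0.75 (adjusted p = 0.0459). Among 4 tested anterior lobe hormones only Fshb was called, at -2.04 in p27-/- (adjusted p = 0.028) and -2.27 in the compound mutant (adjusted p = 0.0294). Its libraries overlapped, at 7.15 to 9.64 in WT, 6.37 to 7.26 in p27-/- and 5.91 to 7.50 in the compound mutant. In p27-/-, Prl was at 0.40, Gh at -0.72 and Tshb at -0.36. Each of these marker calls was lost with at least 1 of the libraries left out. Limma called 0 of 4 tested stem cell, 0 of 5 macrophage and 0 of 3 tested erythroid markers in any comparison, and 1, 0 and 0 of them in p27-/- and 2, 2 and 1 in the compound mutant had an unadjusted p under 0.05 against WT. The mean level of the 4 stem cell markers, of which Sox2 is one, was 0.04 to 0.24 in WT, -0.10 to -0.01 in p27-/- and -0.23 to 0.00 in the compound mutant. Every mutant library was below every WT library, and all 4 genes had a difference below 0 in both mutants. The part of these cell types in the D cyclin values was not tested.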

How the data were processed

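Bulk RNA from the dissected IL of 10 mice was sequenced by the authors, who aligned reads with STAR 2.5.2a, counted them per gene with RSEM 1.3.30 without strand on the Ensembl transcriptome of GRCm38 and normalized the counts with DESeq2 1.18.1. The deposited log2 values cover 29527 genes. The transformation is not given in the sources used here, and differences of weakly expressed genes are understated. The table holds no counts, so the depth of each library is unknown and no interval that needs it is given.

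Groups follow the genotype that the labels give. The 17268 genes whose mean log2 value reached 3.32 (a linear value of 10) were tested with limma 3.58.1 in R 4.3.3. All 3 genotypes entered 1 model with a trend of variance on mean level, and p-values were adjusted by the Benjamini-Hochberg method over these genes (threshold 0.05). The study's methods name a pairwise test on counts, which log2 values do not allow. Levels per kb are the linear values divided by exon length (GENCODE, NCBIM37), and no position of that build is used. Symbols were matched by ID for 22709 genes. Positions and promoters are those of RefSeq (GRCm38.p6), whose promoter table held windows for 3 of the members.

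The members and gene lists were chosen with earlier results of these data known. The members' comparisons with WT, and those of Ccnd2 and Cdk4 between the mutants, therefore carry no test. The p-values of the listed genes are printed but are no independent test. The genes named are the members, the called genes of each list (at most 4 per direction by smallest p), Cdkn1b, Sox2, Mki67 and Top2a, the 5 genes most like Ccnd2 and Ccnd1, the 5 tested genes nearest to Ccnd2 within 500 kb and genes that overlap a member. The genes between Ccnd2 and Cdkn1b were counted after the values were seen. Alternatives changed the filter (none, or a linear mean of 50), the libraries (only the 2 genotypes compared, or each library left out in turn), the scaling (quantile normalization, or centring on the median) and the model (no variance trend, weights per array, a block for the replicate number, or Xist as covariate).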

Additional observations from a re-analysis of the deposited data

Results flagged for a closer look

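Among the 16 measures of the members, their sums and shares, and of Cdkn1b, Sox2, Mki67 and Top2a that were examined, 3 had a WT library set apart from the remaining WT libraries. Chance alone flags about 1 measure in 20. For Ccnd2, WT replicate 2 was the highest at 11.87, against 11.54 to 11.59 in the others, with a gap of 0.866 of the whole range of the group. For Top2a the same library was the highest, at 6.98 against 6.18 to 6.27 (0.885 of the range). For Sox2, WT replicate 3 was the highest, at 7.75 against 7.34 to 7.39 (0.885 of the range). Anterior lobe hormone genes were also highest in WT replicate 2. Ccnd2 was far above both mutants in every WT library.

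The difference of Ccnd2 from WT was unlike in the 2 mutants, by 0.99 on the log2 scale. Both differences were known when the gene was chosen, so this is a description and not an independent test. The same compound mutant libraries had the widest spread of Ccnd2 of any genotype, from 9.03 in replicate 3 to 9.91 in replicate 1.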

How the results depend on the processing

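All 190 values of the members against WT under other settings or with 1 library left out kept their direction and moved by less than the spread between replicates. Between the mutants, the difference of Ccnd2 was 0.99 with no filter, with a fit of only the 2 genotypes, with no trend and with the replicate number as a block, 0.992 after quantile normalization and between 0.771 and 1.21 with a library left out. The adjusted p that goes with it, 0.0485, is no evidence for a gene chosen with these values known, and it lay above the threshold in those 5 settings (0.1, 0.0583, 0.0777, 0.0805 and 0.0559) and in 7 of 10 fits without a library, up to 0.382 without p27-/- replicate 3. The difference of Ccnd3, -0.00769, turned to 0.0386 with array weights and lay between -0.0751 and 0.044 with a library left out. The cause of these changes was not tested.

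Counts of called genes depended more on the settings. In p27-/- against WT, 1343 genes were called, 831 with no filter, 807 with only the 2 genotypes, 595 with the replicate number as a block and 402 to 1707 with a library left out, the fewest without p27-/- replicate 3. The count also lay more than 1.5 times below that of all libraries without WT replicate 3 or 4 and without p27-/- replicate 1 or 2. In p27-/-;Sox2+/- against WT, 468 were called, 260 with only the 2 genotypes, 1240 with array weights, 209 with the block and 79 to 656 with a library left out, the fewest without p27-/-;Sox2+/- replicate 2, with lower counts also without WT replicate 4 and p27-/-;Sox2+/- replicate 1 or 3. Between the mutants 25 were called, 6 with no filter, 45 with only the 2 genotypes, 8 with no trend, 283 with array weights, 15 after quantile normalization, 2 with the block and 0 to 41 with a library left out, with 0 without p27-/- replicate 2 or 3 and without p27-/-;Sox2+/- replicate 1 or 2, and 41 without WT replicate 1.

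Libraries with the same replicate number had correlations of their deviations from the genotype means between -0.238 and 0.182, so the numbers were not taken to pair the mice. Other scalings moved the median of all differences by at most 0.018. The number of mice limits the precision, since depth is unknown.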
